A study of Homo sapiens with 6 samples.

Results

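Cullin-RING ubiquitin ligases are assembled from a cullin scaffold, a RING subunit that recruits the ubiquitin-conjugating enzyme, and exchangeable substrate receptors. F-box proteins (FBXW with WD40 repeats, FBXL with leucine-rich repeats, FBXO with other domains) bind CUL1 through the linker SKP1, and most KLHL proteins, which join a BTB domain to Kelch repeats, bind CUL3 directly. The receptors decide which proteins are marked for the proteasome, and in epithelial and tumour cells they govern cell cycle regulators, signalling proteins and keratins. The genes described here are those whose array symbol is CUL, FBXO, FBXL, FBXW or KLHL followed by a digit, with SKP1, SKP2 and RBX1 added. The rule used names only, and gave 106 of the 19775 genes with a probe set of their own on the array, measured by 259 probe sets. Of these genes, 5 were pseudogenes or long noncoding RNAs caught by their names, and none of the 5 gave a signal bright enough to test.

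The cells were NCI-H292, a human lung cancer line with mucoepidermoid features. The CT45A1 overexpression group carried a stable fusion of CT45A1, a cancer/testis antigen encoded on the X chromosome, with Venus, a fluorescent protein. The CT45A1 negative group was stably transfected with the Venus vector alone. Each group had 3 replicates, each on 1 array, and both were grown in DMEM with serum. Whether the replicates were separate cultures, and whether a group was 1 clone or a pool, is not stated in the labels, so p-values reflect how far these arrays scatter, and that scatter can be technical.

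Each probe set has a MAS5 signal, a summary intensity on a linear scale. Every difference is given in log2 units, with the negative mean subtracted from the overexpression mean. At the brighter CT45 probe set, which is shared by several CT45 genes, the signal lay between 445 and 700.1 in overexpression and between 1.95 and 23.1 in negative cells. Array medians were 79.2 to 83.3 in overexpression and 72.6 to 75.6 in negative cells. The ratio of the actin control's 3' signal to its 5' signal, which grows as RNA is degraded or labelled in shorter pieces, was 1.42 to 1.55 in overexpression and 1.64 to 1.91 in negative cells. All 8 epithelial marker genes looked for, among them EPCAM, CDH1 and KRT18, had a probe set above the filter, and 1 of their 14 kept probe sets, of KRT18, was called, lower. Of the 14, 9 lay above 0 and 5 below, with a median difference of 0.16. At an unadjusted limma p under 0.05, 3 were higher and 1 lower. The summed signal of the epithelial list, in which bright probe sets weigh most, was 77661 to 78140.4 in overexpression. In negative cells it was 78300 to 83867, without overlap. Of 9 measured marker genes of blood, endothelium, fibroblasts and muscle, 4 (ACTA2, CD79A, CDH5 and PECAM1) had a kept probe set. PTPRC, CD3D, COL3A1, DES and MYH11 had none. The summed signal of that list was 1519.8 to 1708 in overexpression and 1348 to 1550.1 in negative cells, and 5 of its 6 kept probe sets lay above 0 and 0 were called. The part of these markers and of the actin ratio was not tested. Fits with the ratio as a covariate are given below, but its values did not overlap between the groups, so ratio and group are confounded in large part.

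Most ubiquitin ligase genes of these families differed little between the groups, as did most probe sets tested on the array. Of these genes, 7 had a probe set that passed the test. At the probe sets that passed, KLHL24, FBXO32, FBXO38 and KLHL28 were higher in CT45A1 overexpression, by 0.48 to 1.12 on the log2 scale. SKP2, FBXW11 and CUL2 were lower at theirs. The kept probe sets of KLHL28 and of SKP2 lay on both sides of 0. Probe sets were tested when their signal exceeded the array median on at least 3 of the 6 arrays. That kept 164 of the 259 member probe sets, from 79 of the 106 genes, and the other 27 genes, among them FBXL7, FBXL13, FBXO40, FBXW8, KLHL1, KLHL4, KLHL6 and KLHL41, were too dim to test. In limma, with p-values adjusted over all 27618 probe sets kept, 7 member probe sets were higher and 3 lower at an adjusted p under 0.05, and 154 did not pass. Over all probe sets tested, 1.89% were called higher and 1.34% lower, 3.23% in all, against 6.10% of the members. Centring each array on its median gave 6 member probe sets higher and 15 lower, or 12.8%, against 387 higher and 2588 lower of all, or 10.8%, and a member median of -0.0861 where that of all probe sets was -0.11. With 1 probe set per gene, 6 of 79 member genes were called, or 7.59%, against 3.84% of all genes. With the probe sets of a gene averaged, 3 of 79 were called, or 3.80%, against 2.84% of all genes. These were KLHL24, CUL2 and FBXW4, the last named after its values were seen, with a difference of 0.37 at its single kept probe set (limma adjusted p = 0.0436 over genes and 0.0635 over probe sets).

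The median difference of the members was 0.06, against 0.03 over all probe sets tested. Of the members 98 lay above 0 and 66 below, or 59.8% above, against 55.5% of all probe sets tested. Of the 164, 148 differed by under 0.5, and 88.5% of all probe sets tested did so. For 89 members the 95% interval of the difference lay wholly within 0.5 of 0. Only KLHL24, at 1 probe set, differed by 1 or more, and 1.76% of all probe sets tested did. The arrays of the groups did not overlap at 51 member probe sets, 31 higher and 20 lower, or 31.1%, against 26.6% of all probe sets. An unadjusted p under 0.05 was reached by 33 members, or 20.1%, against 20.7% of all. The cells were measured in bulk, so fewer cells with a transcript and less of it per cell cannot be told apart.

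**Figure D1:**
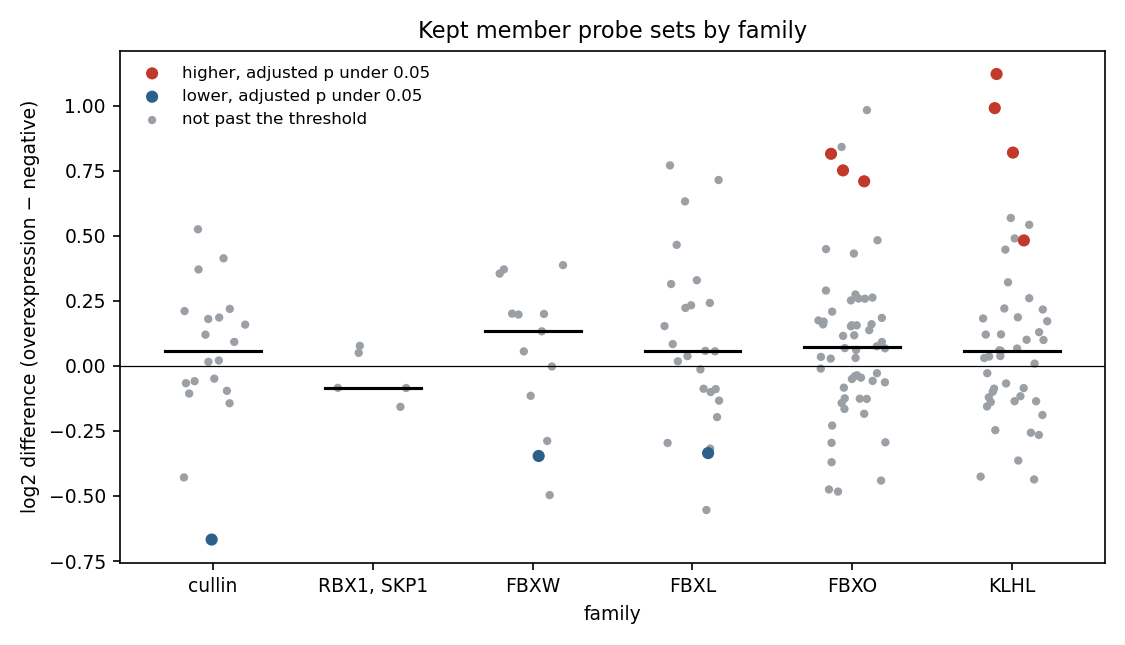
Log2 difference, CT45A1 overexpression minus negative (vertical axis), of the 164 kept probe sets, 1 point each, by family (horizontal axis), with the family median as a black bar. Red points are higher and blue points lower at an adjusted p under 0.05. The 7 red points are all FBXO and KLHL probe sets, of 4 genes. The 3 blue ones lie among the cullins, FBXW and FBXL, where SKP2 is placed.

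By family, 3 of 56 FBXO probe sets were called higher, from 2 genes, with 2 of the calls at FBXO32. Of 45 KLHL probe sets 4 were called higher, from 2 genes, with 3 of the calls at KLHL24. Neither family had a lower call. There was 1 lower call each among 20 cullin, 13 FBXW and 25 FBXL probe sets, with none higher. Over all probe sets tested, 1.89% were called higher and 1.34% lower. At an unadjusted p under 0.05 limma gave 10 higher and 2 lower for FBXO, 6 and 3 for KLHL, 1 and 2 for cullins, 2 and 2 for FBXW and 2 and 3 for FBXL. No difference between families was tested. The family medians were 0.07 for FBXO, 0.06 for KLHL, 0.06 for cullins, 0.13 for FBXW and 0.06 for FBXL.

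The number of calls depended on single arrays and on the variance model. There were 2, 0 and 3 member calls without overexpression replicate 1, 2 and 3, and 1, 4 and 8 without negative replicate 1, 2 and 3. The calls over all probe sets moved too, from 892 to 221, 159 and 460 without an overexpression array and to 255, 401 and 1171 without a negative one. Without the variance trend limma called 0 members, with 34 at an unadjusted p under 0.05, and 4 of all 27618 probe sets. Adding the actin ratio to the fit left 1 member call, at KLHL24, and 702 calls over all probe sets. The ratio did not overlap between the groups, so this fit cannot tell it well from the group. At CUL2 203078_at the SE grew from 0.15 to 0.28. At FBXO32 225328_at the SE also grew from 0.15 to 0.28, while the difference was 0.71 without the ratio and 0.72 with it. All 10 differences kept their sign in every one of these fits.

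KLHL24, a CUL3 adaptor that acts on keratin 14 in skin and on itself, was higher at 3 of its 4 kept probe sets. Its promoter is shown as that of the gene with the most calls, and that of SKP2 as an example of an F-box gene with a lower call. Both are RefSeq sequences of GRCh38.p14 from 250 bases before to 50 after the annotated start, 300 bases in all, 5′ to 3′. KLHL24 lies at chr3:183635373-183635672 on the plus strand and SKP2 at chr5:36151861-36152160 on the plus strand. Capitals mark a CCAAT box, here read on the opposite strand.

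KLHL24: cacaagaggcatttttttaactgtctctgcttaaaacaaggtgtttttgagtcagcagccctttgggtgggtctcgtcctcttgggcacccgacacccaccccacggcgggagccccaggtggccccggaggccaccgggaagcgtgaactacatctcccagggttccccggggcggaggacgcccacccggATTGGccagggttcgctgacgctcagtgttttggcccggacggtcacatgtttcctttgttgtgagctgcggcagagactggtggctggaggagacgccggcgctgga

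SKP2: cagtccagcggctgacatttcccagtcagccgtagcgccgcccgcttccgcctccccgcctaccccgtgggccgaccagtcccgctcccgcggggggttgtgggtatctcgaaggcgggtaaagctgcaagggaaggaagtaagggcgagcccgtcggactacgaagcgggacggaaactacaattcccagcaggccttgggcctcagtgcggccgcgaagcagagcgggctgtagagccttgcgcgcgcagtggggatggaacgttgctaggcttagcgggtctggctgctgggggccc

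The motifs searched, on both strands, were CCAAT, the E-box CACGTG, the forkhead motif GTAAACA, the E2F motif TTTCGCGC and the cyclic AMP response element TGACGTCA. Promoters were found for 87 member genes, and for 6 of the 7 with a call. Of those 6, KLHL24 alone held a match, 1 CCAAT box, so no motifs overlapped there. The CCAAT box is one that 34.6% of all 35116 promoters and 23.0% of the member promoters hold. The E-box was in 10.3% of member promoters and 7.26% of all. The forkhead, E2F and response element motifs were each in 1 member promoter, against 3.42%, 0.515% and 1.85% of all. The KLHL24 and SKP2 windows had a GC content of 62.0% and 67.3%, against a median of 65.3% over member promoters and 58.7% over all.

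At KLHL24 226158_at the signal was 486, 561 and 565 in overexpression and 252, 184 and 322 in negative cells. All 3 overexpression arrays lay above all negative ones, and the difference was 1.12 (SE 0.19, limma adjusted p = 0.0155), or 2.18-fold. At KLHL24 206551_x_at it was 865, 1044 and 826 in overexpression and 300.5, 506 and 626 in negative cells. The negative arrays were the more spread, with negative replicate 1 lowest, and the difference was 0.99 (SE 0.23, limma adjusted p = 0.0438). The ending _x_at marks probes that can match other transcripts. The call at 206551_x_at was lost with limma's robust variance model (adjusted p = 0.0553). With an array left out it held only without negative replicate 3 (limma adjusted p = 0.0143). At KLHL24 221985_at the signal was 298, 358.5 and 277 in overexpression and 142, 191 and 199 in negative cells, a difference of 0.82 (SE 0.18, limma adjusted p = 0.0427). The remaining kept probe set, 221986_s_at, differed by 0.45 (limma adjusted p = 0.227), also without overlap. Averaged over its probe sets KLHL24 rose by 0.84 (SE 0.16, limma adjusted p = 0.0292). With the actin ratio as a covariate, 226158_at differed by 1.81 (limma adjusted p = 0.00742). Its limma adjusted p was 0.0767 without overexpression replicate 2, 0.0515 without overexpression replicate 3, 0.0569 without negative replicate 1 and 0.0959 without the variance trend. At 221985_at the call was lost with quantile normalization and cyclic loess (limma adjusted p = 0.0616 and 0.0613). With an array left out it held only without negative replicate 3 (limma adjusted p = 0.0381).

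FBXO32, or atrogin-1, an F-box protein induced when muscle wastes and a target of FOXO factors there, was higher at 2 of its 5 kept probe sets, and the differences at all 5 lay above 0. At FBXO32 225803_at the signal was 674, 513 and 501 in overexpression and 332, 321 and 299 in negative cells. The groups were well apart, with overexpression replicate 1 highest, and the difference was 0.81 (SE 0.14, limma adjusted p = 0.0161). At FBXO32 225328_at the signal was 644, 616 and 471 in overexpression and 361, 309 and 383 in negative cells, a difference of 0.71 (SE 0.15, limma adjusted p = 0.0328). FBXO32 241762_at differed by 0.84 (SE 0.25, adjusted p = 0.0966), with overexpression signals of 138 to 175 above negative ones of 76.3 to 99.998. The other 2 differed by 0.43 and 0.25. The mean of the FBXO32 probe sets differed by 0.61 (SE 0.15, limma adjusted p = 0.0709), short of the threshold. With the actin ratio in the fit, the called probe sets differed by 0.52 (SE 0.24, limma adjusted p = 0.284) and 0.72 (SE 0.28, limma adjusted p = 0.203).

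FBXO38, an F-box protein known as a partner of the transcription factor KLF7 and, in T cells, as a receptor for PD-1, had the smallest adjusted p of the members. At FBXO38 224369_s_at the signal was 1584, 1828 and 1596 in overexpression and 1180.1, 929 and 884 in negative cells. The groups did not overlap, and the difference was 0.75 (SE 0.12, limma adjusted p = 0.0112). Its other 2 kept probe sets differed by 0.45 (SE 0.32) and 0.16 (SE 0.11), with overlapping arrays, and the mean of all 3 by 0.45 (limma adjusted p = 0.0973). KLHL28, a BTB-Kelch protein, had probe sets on both sides of 0. At KLHL28 228328_at the signal was 698, 837 and 741 in overexpression and 536, 556 and 532 in negative cells, a difference of 0.48 (SE 0.10, limma adjusted p = 0.0380). This call was lost with quantile normalization, cyclic loess and median centring (limma adjusted p = 0.0580, 0.0561 and 0.0784) and with any array left out (0.0545 to 0.161). At KLHL28 235727_at the difference was -0.27 (SE 0.14, limma adjusted p = 0.319), and the mean of both was 0.11 (SE 0.10, limma adjusted p = 0.594).

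**Figure D2:**
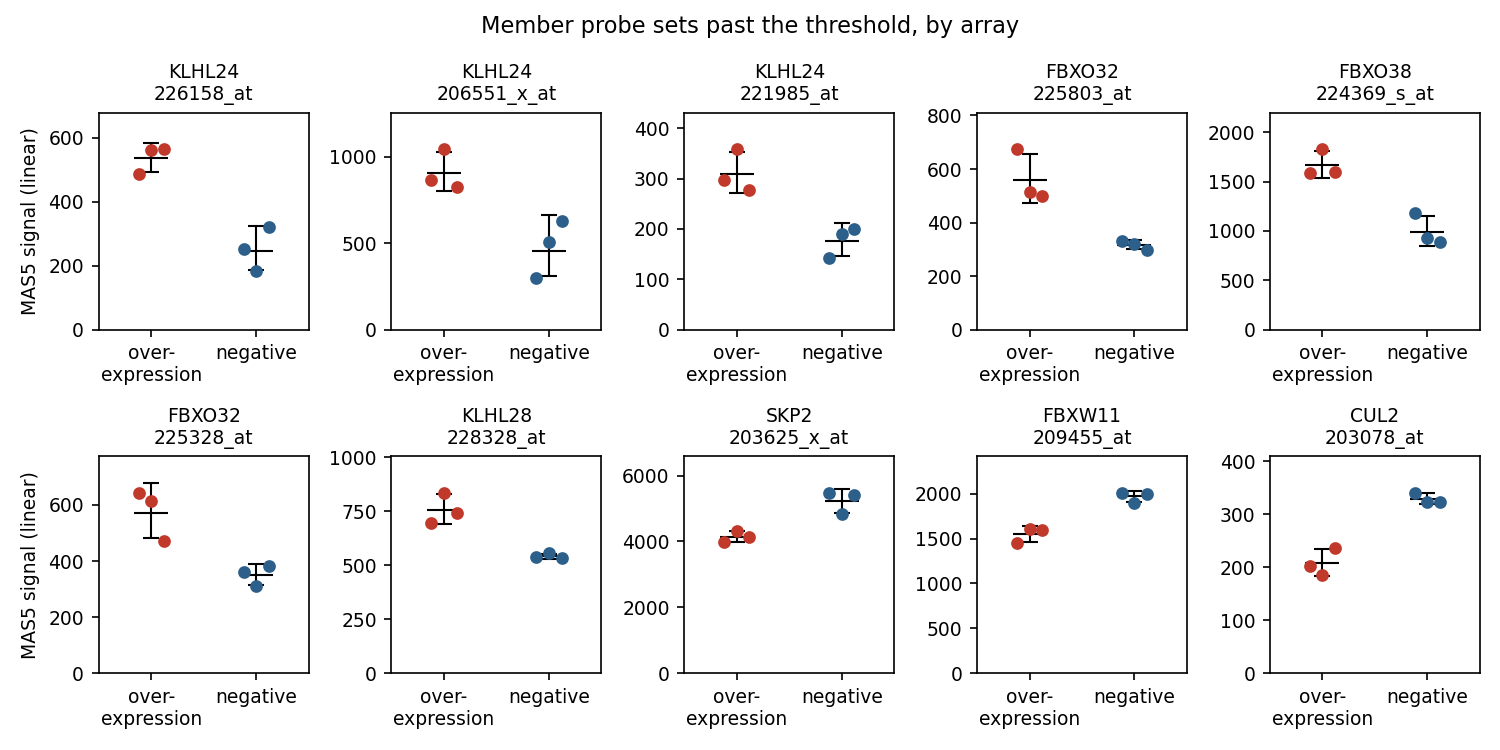
MAS5 signal on a linear scale (vertical axis) at the 10 member probe sets past the threshold, with the 3 CT45A1 overexpression arrays in red on the left and the 3 negative arrays in blue on the right of each panel. Bars are the mean of the log2 signal ± SD, turned back to the linear scale. The groups do not overlap in any panel, and KLHL24 206551_x_at has the widest negative group in log2 units, from 300.5 to 626 in signal.

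SKP2, the F-box receptor that marks the CDK inhibitor p27 for breakdown and so favours entry into S phase, was lower at 1 of 3 probe sets. At SKP2 203625_x_at the signal was 3971, 4327 and 4139 in overexpression and 5483, 4822 and 5401 in negative cells. Every overexpression array lay below every negative one, and the signal fell by 0.34 on the log2 scale (SE 0.07, limma adjusted p = 0.0371). The call was lost with quantile normalization and cyclic loess (limma adjusted p = 0.0617 and 0.0616). With an array left out it held only without negative replicate 2 (limma adjusted p = 0.0387). The other SKP2 probe sets, 203626_s_at and 210567_s_at, differed by 0.08 (SE 0.16) and 0.06 (SE 0.09), and the mean of all 3 by -0.07 (SE 0.08, limma adjusted p = 0.667). The name of the called probe set ends in _x_at, which marks probes that can match other transcripts.

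FBXW11, one of the β-TrCP receptors that act on IκB and β-catenin, was lower at its brighter probe set. At FBXW11 209455_at the signal was 1454, 1603 and 1592 in overexpression and 2011, 1897 and 1998 in negative cells, and it fell by 0.35 (SE 0.08, limma adjusted p = 0.0422). FBXW11 209456_s_at differed by -0.11 (SE 0.15, limma adjusted p = 0.713), again with all overexpression arrays, 196 to 201, below the negative ones, 209 to 221. The mean of both FBXW11 probe sets differed by -0.23 (SE 0.08, limma adjusted p = 0.142). CUL2, the scaffold of the ligase that uses the von Hippel-Lindau protein, was lower at CUL2 203078_at, with 203, 185 and 237 in overexpression and 341, 323 and 324 in negative cells. The signal fell by 0.67 there (SE 0.15, limma adjusted p = 0.0422). The other CUL2 probe set, 203079_s_at, was also lower on all overexpression arrays, at 1988, 1973 and 1947 against 2098.5, 2121 and 2141, but by 0.11 (SE 0.07, limma adjusted p = 0.402). The mean of both CUL2 probe sets fell by 0.39 (SE 0.08, limma adjusted p = 0.0361). With the actin ratio as a covariate SKP2 203625_x_at differed by -0.22 (SE 0.12), FBXW11 209455_at by -0.25 (SE 0.13) and CUL2 203078_at by -0.59 (SE 0.28). Their limma adjusted p was 0.379, 0.365 and 0.305. The calls at FBXW11 209455_at and CUL2 203078_at were lost with any array left out (limma adjusted p = 0.0605 to 0.134 and 0.0512 to 0.154).

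**Figure D3:**
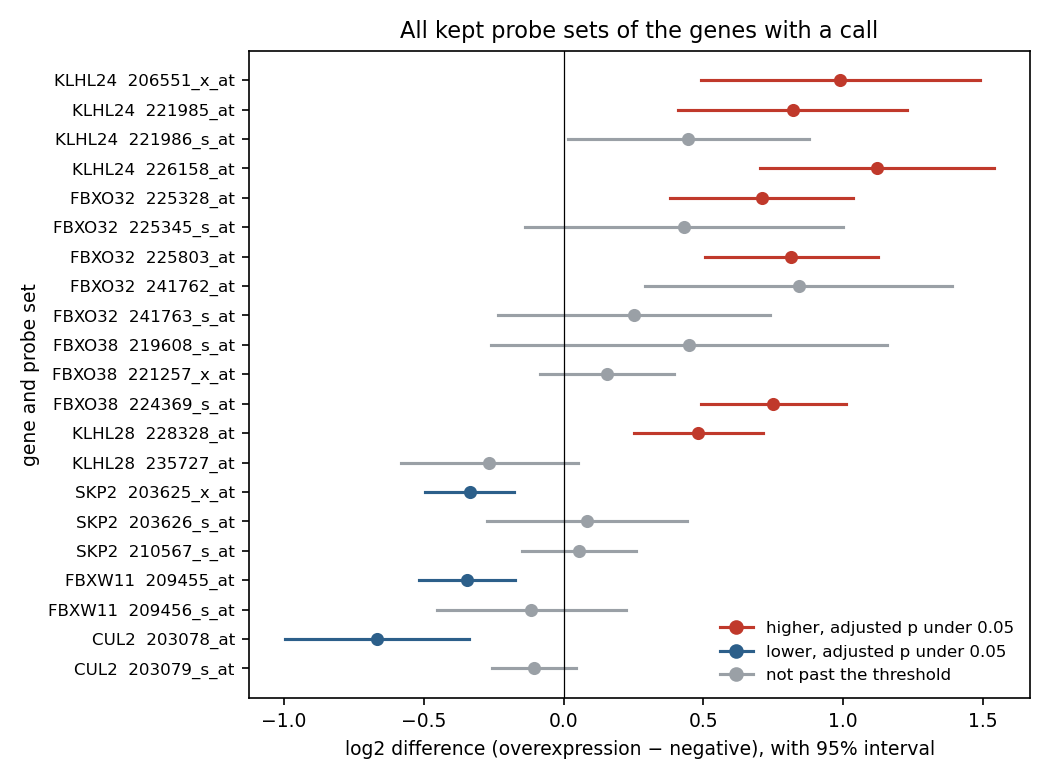
Log2 difference, CT45A1 overexpression minus negative, with its 95% interval (horizontal axis) at every kept probe set of the 7 genes with a call (vertical axis). All KLHL24, FBXO32 and FBXO38 probe sets lie above 0 and both FBXW11 and CUL2 probe sets below it, while those of KLHL28 and SKP2 lie on both sides.

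All 7 genes with a call had at least 2 kept probe sets, and in 5 of them every kept probe set lay on the called side. Among the 42 member genes with at least 2 kept probe sets, 18 had all differences on one side of 0 and 24 on both sides. In 5 genes, FBXL17, FBXO11, FBXO45, FBXW7 and KLHL20, named after their values were seen, arrays of the groups were separated upward at 1 probe set and downward at another. Over all probe sets tested, the groups did not overlap at 26.6%. These gene counts were not made for genes outside the families, so they cannot be called particular to the members. FBXW7, the receptor for cyclin E, MYC and Notch, had 669.8, 777 and 662 in overexpression against 812, 847 and 912 in negative cells at 218751_s_at, a difference of -0.29 (SE 0.10, limma adjusted p = 0.149). At FBXW7 222729_at it had 579, 599 and 614 in overexpression against 553, 481 and 528 in negative cells, a difference of 0.20 (SE 0.10, limma adjusted p = 0.305). FBXO11, a receptor for the repressor BCL6, differed by -0.29 at 203255_at and 0.21 at 222119_s_at (limma adjusted p = 0.0729 and 0.217). Which transcript forms these probe sets measure was not tested.

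Of the scaffolds, the cullins other than CUL2 did not pass in the main fit. CUL1, which holds SKP1 and the F-box proteins, differed by -0.05 (95% interval -0.21 to 0.11) at 207614_s_at and by -0.10 at 238509_at. CUL3, the scaffold of the KLHL adaptors, had 528, 587 and 589 in overexpression and 791, 814 and 691 in negative cells at 201370_s_at. That difference, -0.43 (SE 0.11, limma adjusted p = 0.0589), missed the threshold although the arrays did not overlap, and at CUL3 201371_s_at it was -0.06 (95% interval -0.19 to 0.07). In the alternative fits described below, CUL3 201370_s_at passed in 5 of 16 and CUL2 203078_at in 7 of 16.

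CUL4A and CUL4B, which bind receptors through DDB1, differed by 0.02 to 0.41 and by 0.02 to 0.22 at 4 kept probe sets each, with the lowest adjusted p at 0.286. CUL5, the scaffold for SOCS-box proteins, differed by -0.14 to 0.52 over 4 kept probe sets. CUL7, which pairs with FBXW8, differed by 0.37 (SE 0.16, limma adjusted p = 0.236) at its single kept probe set, without overlap, and CUL9, a cytoplasmic binder of p53, by 0.19 (SE 0.14). RBX1, the RING subunit of most cullin ligases, had 4484, 4758 and 4316 in overexpression and 5405, 5359 and 4410 in negative cells. The groups overlapped, and the difference was -0.16 (95% interval -0.35 to 0.04, limma adjusted p = 0.330). The 4 probe sets of SKP1, the F-box linker, differed by -0.08, -0.08, 0.05 and 0.08.

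**Figure D4:**
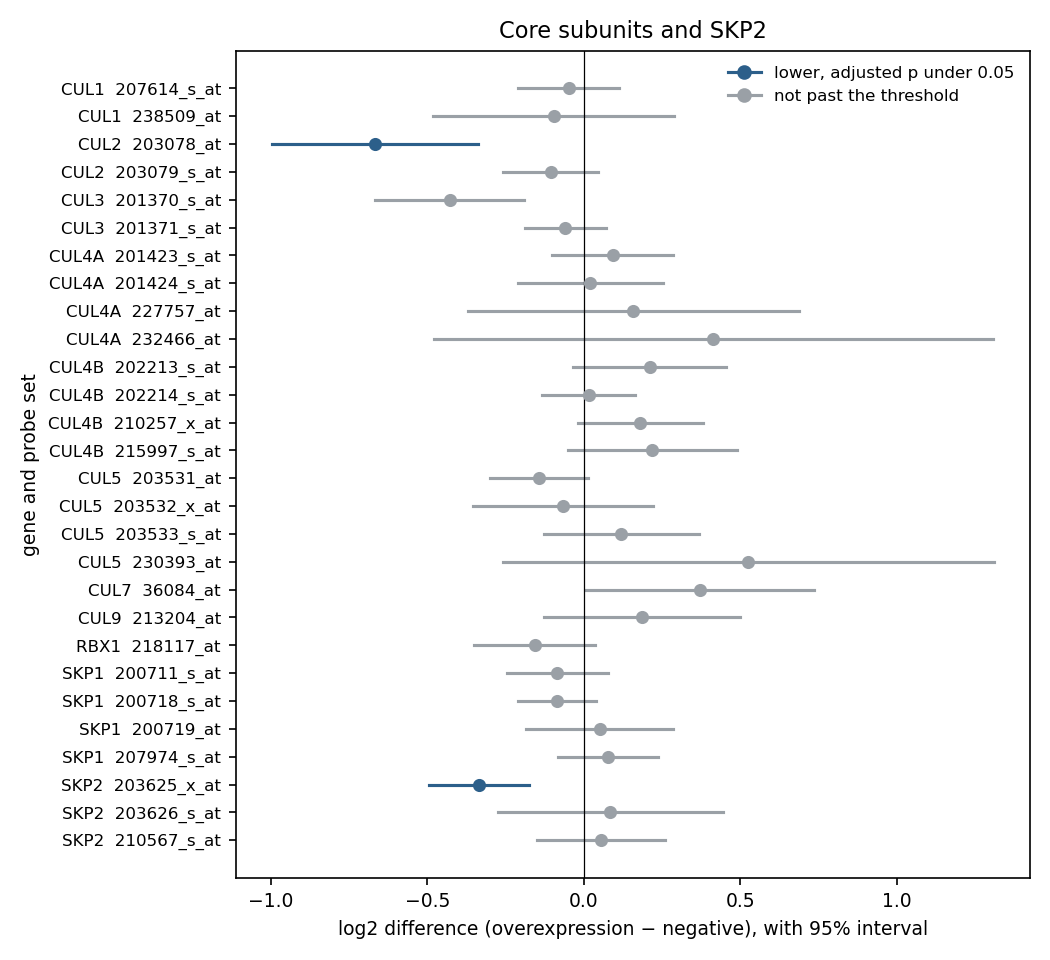
Log2 difference, CT45A1 overexpression minus negative, with its 95% interval (horizontal axis) at each kept probe set of the cullins, RBX1, SKP1 and SKP2 (vertical axis). CUL2 203078_at and SKP2 203625_x_at, in blue, passed downward, and most intervals include 0.

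The largest differences that missed the threshold, among probe sets with an unadjusted p under 0.05, ran both ways. Upward they were FBXO41, a brain-enriched F-box protein, at 221945_at with 0.98 (SE 0.40, limma adjusted p = 0.201), FBXO32 241762_at as above, FBXL20 239223_s_at with 0.77 (SE 0.20, limma adjusted p = 0.0654), and FBXL19 228277_at with 0.71 (SE 0.27, limma adjusted p = 0.176). The FBXO41 difference was 0.53 without negative replicate 1, and 0.09 at the other kept probe set of that gene. FBXL20, an F-box substrate receptor at synapses in mice, had 213, 217 and 244 in overexpression and 135, 108 and 156 in negative cells there. Its other kept probe sets differed by 0.23 to 0.33. Downward they were FBXL18 227500_at with -0.55 (SE 0.14, limma adjusted p = 0.0604), FBXO17 220233_at with -0.48 (SE 0.16, adjusted p = 0.130), KLHL20 204176_at with -0.44 (SE 0.11, adjusted p = 0.0554) and CUL3 201370_s_at as above. KLHL20, a CUL3 adaptor for the kinase DAPK1 and for PML, had 751, 875 and 779.9 in overexpression and 1014, 1223 and 1024 in negative cells at that probe set. Its 3 other kept probe sets differed by 0.01 to 0.57. Of the 3 kept probe sets of FBXL18, 1 lay above 0, at 0.63, and 2 below. In the alternative fits described below, KLHL20 204176_at passed in 4 of 17 and FBXL18 227500_at in 3 of 17. FBXO17 220233_at passed in 1 of 17 and FBXL20 239223_s_at in 1 of 15. The FBXO41, FBXO32 and FBXL19 probe sets named here passed in none.

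Other widely studied receptors did not pass the test. FBXL5, which senses iron and acts on the iron regulatory protein IRP2, differed by -0.09 at both probe sets. FBXO5, or EMI1, an inhibitor of the anaphase-promoting complex, differed by 0.03 (95% interval -0.16 to 0.22) and -0.17. KLHL9, a CUL3 adaptor for Aurora B, differed by 0.07, 0.06 and -0.16. KLHL12, which acts on the coat protein SEC31, differed by 0.04 (95% interval -0.12 to 0.19) at 225068_at and by 0.32 (limma adjusted p = 0.272) at 219931_s_at. The groups did not overlap at 219931_s_at.

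Genes that act with these families but bear other names were set beside them as lists. Of the genes that attach or remove NEDD8, exchange receptors or supply the ubiquitin-conjugating step, 29 were measured at 72 kept probe sets. Of these 2 were lower and 0 higher, or 2.78%, with 8 lower and 5 higher at an unadjusted limma p under 0.05, and the median difference was -0.03. The calls were COPS6, a subunit of the COP9 signalosome that takes NEDD8 off cullins, and ARIH1, a ligase that works with neddylated cullins. COPS6 fell by 0.42 (SE 0.07, adjusted p = 0.0155) at 201405_s_at, with 1987, 2038 and 2119 in overexpression and 2621, 2884 and 2745 in negative cells, and differed by -0.16 at its other kept probe set. ARIH1 fell by 0.46 (SE 0.11, adjusted p = 0.0453) at 201879_at, with -0.18 to 0.35 at its 5 others.

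Substrate receptors and linkers outside the naming rule gave 5 lower and 0 higher of 139 kept probe sets from 60 genes, or 3.60%, with 15 lower and 11 higher at an unadjusted limma p under 0.05 and a median of 0.02. SPOP, a BTB receptor for CUL3, fell by 0.94 (SE 0.10, adjusted p = 0.00261) at 204640_s_at, with 717, 648 and 825 in overexpression and 1365, 1434 and 1373 in negative cells. Its 2 other kept probe sets differed by 0.11 and 0.06. ENC1, a Kelch protein related to the KLHL family, fell at both kept probe sets, by 0.74 (SE 0.13, adjusted p = 0.0158) and 0.47 (SE 0.08, adjusted p = 0.0153). At the brighter, ENC1 201341_at, the signal was 1834, 1764 and 1804 in overexpression and 2583, 2641 and 2281 in negative cells, with no overlap. DCAF1 and DTL, both CUL4 receptors and DTL that for the replication factor CDT1, fell by 0.56 and 0.46 (adjusted p = 0.0437 and 0.0307), and their other kept probe sets differed by -0.19 to 0.18 and by -0.20.

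Of 72 kept probe sets for transcripts of known cullin ligase substrates, from 39 genes, 2 were lower and 0 higher, or 2.78%, with 12 lower and 5 higher at an unadjusted limma p under 0.05 and a median of 0.04. MCL1, an antiapoptotic BCL2 relative on which FBXW7 acts, fell by 0.36 (SE 0.07, adjusted p = 0.0237) at 200797_s_at, and its 5 other kept probe sets differed by -0.47 to 0.32. WNK1, a kinase recognised by the KLHL3 and CUL3 ligase, fell by 0.45 (SE 0.10, adjusted p = 0.0425) at 211993_at, with -0.05 to 0.55 at its 4 others. These are RNA levels, and protein levels of the substrates were not analysed here. Each of the 3 lists had a share of calls near the 3.23% of all probe sets. All calls in the lists were lower, whereas 1.34% of all probe sets were called lower and 1.89% higher.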

How the data were processed

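RNA of 6 NCI-H292 samples was labelled with a kit for 3' arrays, per the labels' protocols. The deposited intensity values are MAS5 signals for 54675 probe sets, made by the authors with MAS5 and affy per the submitters' processing notes, and their versions are not given in the sources used here. Trimmed by 2%, the intensity averaged 500.1 on each array, so the deposited values were already scaled to a common mean.

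Signals were taken to log2 without an offset, and 62 control probe sets were left out. All 27618 probe sets above the array median on at least 3 arrays were fitted with limma (1 mean per group, eBayes with trend), and two-sided p-values were adjusted by Benjamini-Hochberg over them. Gene symbols came from the platform annotation and were updated by Entrez identifier from RefSeq. Outside controls, 41091 probe sets had 1 symbol, 1801 had several and 11721 had none, and members were taken from the first kind. A further F-box gene is not reported here.

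Named were the core subunits, every member probe set past the threshold with the gene's others, the 4 largest in each direction that missed it at an unadjusted p under 0.05, and the widely studied receptors measured here, FBXW7, FBXW11, FBXO32, FBXL5, KLHL9, KLHL12, KLHL20 and FBXO5. Of the lists, up to 4 called probe sets with the largest differences were named, and 1 more, DTL, was given for completeness. CCNF and RHOBTB2 stood in both the receptor and the substrate list. Members and lists were chosen with earlier results of these data known. The number of arrays limits the precision. Pairwise correlations of log2 signals were 0.970 to 0.982, and no arrays were identical. Errors are limma standard errors unless SD is named. Alternatives were the filter, the scaling, an offset of 32, the variance model, the replicate block, the actin ratio, the probe sets per gene, cross-matching probe sets and each array in turn. Versions were R 4.3.3, limma 3.58.1 and Python 3.11.15.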

Additional observations from a re-analysis of the deposited data

How the results depend on the processing

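The member count of 10 (7 higher, 3 lower) became 3 without a filter, 21 (6 higher, 15 lower) with centring on the array median, 0 without the variance trend, 1 with the actin ratio as a covariate, 6 with 1 probe set per gene and 3 with probe sets averaged per gene, where fewer features were tested. Over all features these settings called 486, 2975, 4, 702, 457 and 338, against 892. The member count lay between 0 and 8 when each array was left out, with the lowest count without overexpression replicate 2 and the highest without negative replicate 3. The members' median was -0.0861 with median centring, 0.0261 with cyclic loess, 0.00149 with the actin ratio and 0.0208 with 1 probe set per gene, and 0.04 to 0.06 with an array left out. Median centring moved the median of all probe sets to -0.11, from 0.03. The regulator count of 2 became 1 without a filter, 8 with median centring, 0 without the trend, 1 with the actin ratio, 1 with 1 probe set per gene, 0 with the mean and 1 without _x_at and _s_at probe sets, and 0 to 2 with an array left out. The receptor count of 5 became 15 with median centring, 0 without the trend, 3 with 1 probe set per gene, 2 with the mean and 1 without _x_at and _s_at probe sets, and 1 to 7 with an array left out. The substrate count of 2 became 1 without a filter, 14 with median centring, 1 with cyclic loess, 0 without the trend, 4 with the replicate block, 6 with the actin ratio (3 higher, 3 lower), 1 with 1 probe set per gene, 0 with the mean and 1 without _x_at and _s_at probe sets, and 0 to 5 with an array left out, the 5 being 3 higher and 2 lower without negative replicate 3. Counts of 0 without the trend stood beside 34, 13, 29 and 14 at an unadjusted limma p under 0.05 for members, regulators, receptors and substrates. Over all probe sets, cyclic loess gave 783 calls, and leaving out _x_at and _s_at probe sets gave 446. The replicate block called 1189 of all probe sets, or 4.31%. With the replicate block 11 members passed, or 6.71%, the 10 among them. Of the 10, 3 calls each were lost with quantile normalization (KLHL24 221985_at, KLHL28 and SKP2) and cyclic loess (the same 3). The correlations between same-numbered arrays were -0.01, -0.01 and 0.10, and overexpression replicate 1 correlated best with negative replicate 2, so the numbers were not taken as pairs. All 10 called members kept their sign in each alternative they entered. The causes were not tested.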
